A study of Drosophila melanogaster with 12 samples.

Results

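The change from feeding to wandering was followed on control food, in 6 of the 12 Affymetrix arrays of the series and across 8387 genes. Each array measured RNA of entire male larvae of Drosophila melanogaster, wild-type strain Canton-S, kept at 25 °C on a semi-defined food with 0.15 M sucrose. The 3 wandering arrays held larvae of the last instar that had left the food, chosen in the upper part of the vial with blue dye only partly left in the gut, and raised on control food from hatching. The 3 mid-L3 arrays held feeding larvae of the same instar, raised on control food, moved early in that instar to fresh control food and collected 12 h later. The stages therefore differed in age and also in this transfer, which cannot be told apart here. The other 6 arrays are the same stages on high sugar food (1 M sucrose, from hatching in wandering larvae and for the last 12 h in mid-L3 larvae), and they were used for the shared estimate of spread and for a comparison at the end. Members were the arrays that the labels name for these stages and this food. The labels call the arrays biological replicates and do not say how many larvae each held.

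At the end of the last instar a Drosophila larva reaches its final size, stops eating and leaves the food to find a place to pupariate. Rising pulses of the steroid hormone ecdysone, made in the prothoracic gland and converted to its active form in other tissues, drive this change through the ecdysone receptor and a cascade of early transcription factors. In the salivary glands the hormone turns on genes for glue proteins, which are later expelled to fasten the puparium. The fat body, which stored fat, glycogen and protein while the larva fed, turns to taking up storage proteins and to autophagy, and the larval gut, epidermis and muscles approach their replacement by imaginal tissues.

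Values below are the deposited intensities of single arrays on a linear scale. A change is the difference of mean log2 values, wandering minus mid-L3, after 12.676 had been added to each intensity and the arrays had been quantile normalized, so the change of dim genes is understated. Its adjusted p comes from limma with Benjamini-Hochberg adjustment over the 8387 genes, and a gene passed at 0.05. Of the 8387 genes, 6642 passed (79.2%), 3305 higher (39.4%) and 3337 lower (39.8%). The 3 wandering values lay apart from the 3 mid-L3 values in 83.0% of genes, and in 78.1% of genes they lay apart and the gene passed. Since passing was this common, groups of genes were also counted with a change of at least 2-fold as a further condition. That condition was met by 3333 genes (39.7%), by 1730 as higher (20.6%) and by 1603 as lower (19.1%). These shares are the background for every count of a group below, and the median change of all tested genes was -0.009. At least 4-fold changes were found in 1392 genes, 808 higher and 584 lower, and at least 16-fold changes in 187 genes, 70 higher and 117 lower.

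Median intensity per array was 79.1 to 80.4 in wandering larvae and 62.2 to 63.6 in mid-L3 larvae. Arrays correlated with Spearman's rho of 0.973 to 0.978 within the wandering stage, 0.966 to 0.970 within mid-L3 and 0.833 to 0.864 between the stages. The first principal component of the 6 arrays set the stages apart and carried 95.8% of their variance. Along the line from the mid-L3 mean at 0% to the wandering mean at 100%, wandering array 1 lay at 94.6% and wandering arrays 2 and 3 at 102.5% and 103.0%, while the mid-L3 arrays lay between -0.8% and 0.8%. The summed intensity of the immune effector genes was highest in array 1 of each stage, as given below, though not that of every such gene. When both arrays numbered 1 were left out, 3452 genes in place of 3333 changed at least 2-fold. With the values as deposited the median change of all genes was 0.18, and with arrays centred on their medians it was -0.12. At least 2-fold changes then split into 2053 higher and 1311 lower as deposited, and into 1571 higher and 1809 lower after centring.

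**Figure D1:**
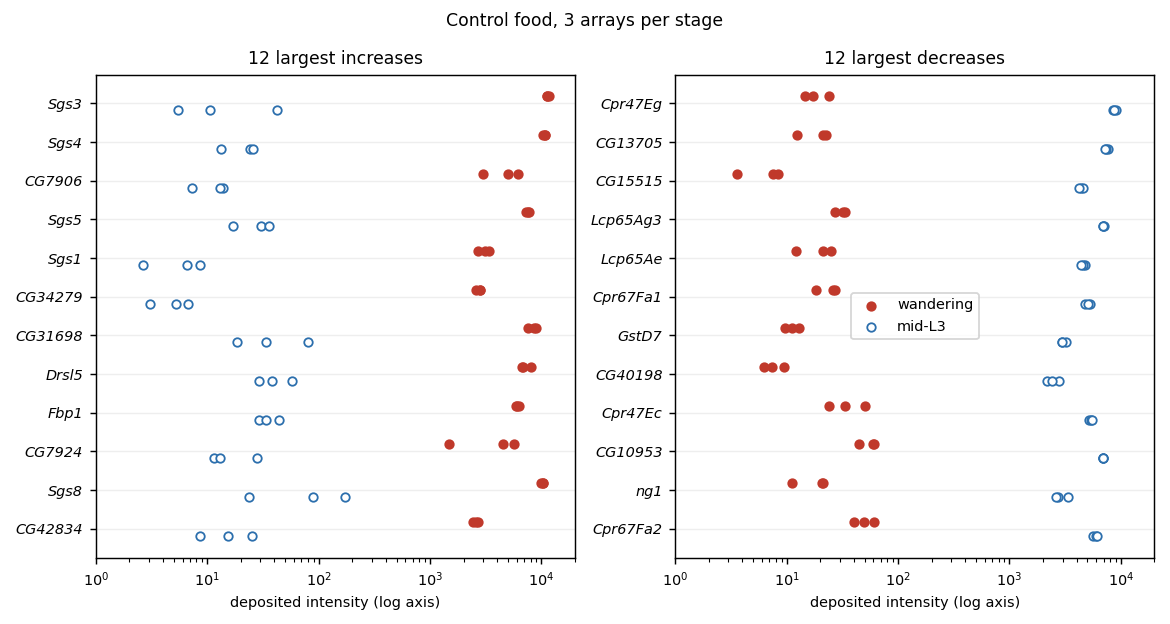
Deposited intensities on a log axis of the 12 genes with the largest increases (left panel) and the 12 with the largest decreases (right panel) among the 78.1% of genes that passed with wandering and mid-L3 values apart. Each row is a gene, filled red points are the 3 wandering arrays and open blue points the 3 mid-L3 arrays. In every row the filled and the open points lie apart.

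The largest increase of all was that of Sgs3, a salivary gland glue protein. Its intensities were 11697, 11210.2 and 11273 in wandering larvae, against 10.6, 5.41 and 42.3 in mid-L3 larvae, a log2 change of 8.65 (SE 0.93, adjusted p = 1.92e-06). Sgs4 had 10802, 10843 and 10331 in wandering larvae, against 24.2, 13.2 and 25.6 in mid-L3 larvae, with a change of 8.39 (SE 0.17, adjusted p = 1.32e-12). Sgs1 had 3389, 3142 and 2683 in wandering larvae, against 2.64, 8.61 and 6.61 in mid-L3 larvae, with a change of 7.53 (SE 0.22, adjusted p = 1.69e-11). The mid-L3 values of these 3 genes lay below the arrays' medians, whereas the wandering values of Sgs3 and Sgs4 lay near the top of the scale. Sgs5 rose by 7.68, Sgs8 by 6.82, Sgs5bis by 6.19 and Sgs7 by 5.31, so all 7 tested Sgs genes rose at least 2-fold. In whole larvae a change in the number of cells of a tissue and a change in RNA per cell cannot be told apart, here or in any result on a tissue's genes that follows.

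The new glue genes ng1, ng2 and ng3, which are also transcribed in the salivary glands of larvae of this instar, went the opposite way from the Sgs genes. For ng1 the values were 21.2, 20.6 and 11.2 in wandering larvae, against 3347, 2753 and 2595 in mid-L3 larvae, and it fell by 6.44 (SE 0.47, adjusted p = 4.22e-08). For ng2 they were 42.9, 60.9 and 46.6 in wandering larvae, against 1466, 1874 and 1193 in mid-L3 larvae, a fall by 4.60 (SE 0.26, adjusted p = 4.09e-09). ng3 had 370.2, 1097 and 358 in wandering larvae, against 2588, 2344 and 1432 in mid-L3 larvae, and fell by 1.96. The stages lay apart in all 3 genes, as in 83.0% of all tested genes, and ng3 kept the highest level of the 3 in wandering larvae. The ecdysone-induced genes of the Eig71E cluster had 2 tested members of 11 listed, and both rose. Of the others, 7 lay below the filter on dim genes and 2 had no probe set with their symbol alone. A gene dim in mid-L3 larvae could pass that filter only by its wandering level, so these 2 do not stand for the cluster. Eig71Ee had 12444, 11599 and 12508 in wandering larvae, against 150.2, 128 and 139.5 in mid-L3 larvae (log2 change 6.20, SE 0.55, adjusted p = 2.82e-07). Eig71Ea had 299.9, 984 and 1082 in wandering larvae, against 10.6, 14.9 and 11.5 in mid-L3 larvae (log2 change 4.79, SE 0.44, adjusted p = 3.67e-07), with wandering array 1 lowest of its stage.

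In the fat body, Fbp1, whose product takes part in the uptake of storage proteins from the hemolymph, changed almost as much as the glue genes. Its values were 6339, 5940.0 and 6014 in wandering larvae, against 29.0, 34.0 and 43.8 in mid-L3 larvae, a change of 7.12 (SE 0.13, adjusted p = 3.14e-13). Fbp2, a fat body protein related to alcohol dehydrogenase, had 11302, 10498 and 10919.6 in wandering larvae, against 7634, 5437 and 6844 in mid-L3 larvae (log2 change 0.95, SE 0.30, adjusted p = 0.0116). With the values as deposited Fbp2 did not pass (adjusted p = 0.0511, in a range of 5.13e-05 to 0.227 over the alternatives). Larval serum protein 2 (Lsp2), a storage protein, had 14547, 12283 and 13153 in wandering larvae, against 13915, 12884 and 12906 in mid-L3 larvae, with a change of 0.076 (adjusted p = 0.224). Lsp2 thus did not pass, with both stages near the top of the scale and overlapping. With arrays centred on their medians it gave -0.29 and passed (adjusted p = 0.00225, in a range of 0.00225 to 0.928 over the alternatives).

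Of the 12 largest increases, 5 were of genes known only by number. CG7906 rose by 7.77 and CG7924, 1 of its neighbours on chromosome arm 3L, by 7.0. CG7906 had 2992, 6180.3 and 5017 in wandering larvae, against 7.34, 13.9 and 13 in mid-L3 larvae. CG34279 rose by 7.41, CG31698 by 7.38 and CG42834 by 6.64. Beside the glue genes the group held Fbp1 and the drosomycin-like gene Drsl5, a member of the antifungal peptide family, with 6620.0, 8129.6 and 6807 in wandering larvae, against 38.0, 57.8 and 29.1 in mid-L3 larvae (7.13, SE 0.21, adjusted p = 1.76e-11). The 12 increases ranged from 6.64 to 8.65 and, on high sugar food, in arrays that this contrast did not use, each was at least 6.29.

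Cuticle genes led the decreases. The largest was that of Cpr47Eg, a protein with the chitin-binding domain of insect cuticle proteins, with 17.4, 24.1 and 14.6 in wandering larvae, against 8535, 8980.4 and 8739.9 in mid-L3 larvae (-7.96, SE 0.13, adjusted p = 1.86e-13). Lcp65Ag3, a larval cuticle protein, had 26.9, 32.2 and 33.2 in wandering larvae, against 7073, 6955 and 6931 in mid-L3 larvae (-7.11, SE 0.095, adjusted p = 6.11e-14). Lcp65Ae had 24.8, 12.1 and 21 in wandering larvae, against 4723, 4557 and 4432 in mid-L3 larvae (-6.96, SE 0.19, adjusted p = 1.18e-11). In each of these the wandering arrays held a small part of the mid-L3 level. Cpr67Fa1 (-6.88), Cpr67Fa2 (-6.40) and Cpr47Ec (-6.62) were cuticle genes of the same group of 12, which also held the glutathione transferase gene GstD7 (-6.83), ng1, and CG13705 (-7.66), CG15515 (-7.65), CG40198 (-6.80) and CG10953 (-6.56). Near-identical neighbours such as Lcp65Ag3 and its copies can share probes, so the level of a single copy is uncertain.

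Of 14 larval cuticle proteins tested, 10 fell at least 2-fold and 1 rose, with a median change of -2.88. The member that rose was Cpr12A, with 1273, 1013 and 1136 in wandering larvae, against 48.3, 45.5 and 65.5 in mid-L3 larvae (3.98, SE 0.16, adjusted p = 2.24e-10). Of 5 pupal cuticle proteins, 2 rose and 3 fell at least 2-fold. Pupal cuticle protein (Pcp) rose by 3.04. Cpr49Ac had 12062, 11422 and 11675 in wandering larvae, against 1936, 1219.7 and 1860.4 in mid-L3 larvae (2.90, SE 0.15, adjusted p = 1.70e-09), a bright transcript at both stages. Edg91 fell by 1.46 and Cpr49Ag by 1.60.

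Genes of the chemistry that hardens and colours cuticle rose among the most. Dopa decarboxylase (Ddc), which makes dopamine for cuticle tanning, had 5889.9, 5622 and 6074 in wandering larvae, against 192, 151 and 185 in mid-L3 larvae (5.0, SE 0.14, adjusted p = 1.37e-11). Punch (Pu), the GTP cyclohydrolase that starts synthesis of the pterin cofactor of tyrosine hydroxylase, had 6768, 7339 and 7143 in wandering larvae, against 545, 480.2 and 526 in mid-L3 larvae (3.79, SE 0.10, adjusted p = 9.49e-12). Ebony (e), which joins dopamine to beta-alanine, had 600.4, 1880.4 and 1997 in wandering larvae, against 79.1, 85.7 and 70.7 in mid-L3 larvae (3.71, SE 0.40, adjusted p = 2.09e-06). Wandering array 1 had the lowest value of its stage for e, still above all mid-L3 values. The dopachrome-converting enzyme gene yellow-f rose by 4.47. Of 11 tanning and pigment genes, 6 rose and 3 fell at least 2-fold. Those that fell were yellow-d (-2.72), the N-acetyltransferase gene speck (-1.71) and the laccase gene straw (stw, -1.41, with -0.65 and -0.53 in dimmer probe sets).

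In chitin metabolism, 4 of 22 genes rose and 10 fell at least 2-fold, against background shares of 20.6% and 19.1%, with a median of -0.80. Genes of synthesis and assembly were among those that fell: the chitin synthase gene krotzkopf verkehrt (kkv) by 1.48, mummy (mmy), which makes the activated sugar for chitin, by 1.84, the deacetylase genes verm by 3.16 and serp by 1.81, and obst-E, a chitin-binding protein of the larval cuticle, fell by 4.82. The chitinase genes Cht10 and Cht5 rose, Cht10 with 4742, 5092 and 4474 in wandering larvae, against 778, 561 and 778 in mid-L3 larvae (2.90, SE 0.11, adjusted p = 1.03e-10), and Cht5 by 2.01. For Cht6 the brightest probe set gave -2.58 and a dimmer one 1.0, so its direction is unsettled.

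Of 23 ecdysone response genes listed, 15 were tested, of which 10 rose at least 2-fold and 1 fell, with a median of 1.47. Another 5 lay below the filter on dim genes. A gene dim in mid-L3 larvae could pass it only by its wandering level, so this share does not stand for the list. ImpE2, an ecdysone-inducible gene found in imaginal discs, had 2714, 2963 and 2989 in wandering larvae, against 24.6, 33.6 and 20.8 in mid-L3 larvae (6.35, SE 0.20, adjusted p = 3.14e-11). The nuclear receptor gene Eip78C had 423, 746 and 811 in wandering larvae, against 11.3, 6.40 and 9.49 in mid-L3 larvae (4.88, SE 0.35, adjusted p = 3.40e-08). Broad (br), a zinc finger factor required for metamorphosis, had 3764, 3697 and 3670.2 in wandering larvae, against 613, 457 and 554 in mid-L3 larvae (2.87, SE 0.14, adjusted p = 7.88e-10). All 3 wandering values exceeded all 3 mid-L3 values in these genes, while the stages lay apart in 83.0% of all tested genes. ImpE3 rose by 4.20, ImpE1 by 3.34, the early transcription factor gene Sox14 by 3.08 and ImpL2, a secreted binding protein of insulin-like peptides, by 1.68. Dimmer probe sets of ImpE1 gave 1.42, 0.026 and 0.0061, and 4 other probe sets of br gave -0.21 to 3.36.

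The ecdysone receptor gene EcR had 1147, 745 and 916 in wandering larvae, against 312, 251 and 318 in mid-L3 larvae (1.44, SE 0.17, adjusted p = 3.59e-06). Its partner ultraspiracle (usp) had 317, 265 and 321 in wandering larvae, against 383, 285 and 355 in mid-L3 larvae (-0.41, SE 0.12, adjusted p = 0.00602), a small fall that did not pass with the values as deposited (adjusted p = 0.225, in a range of 0.00121 to 0.225 over the alternatives). The member that fell at least 2-fold was ftz-f1, a nuclear receptor of the later, prepupal stage, with 74.0, 63.2 and 55.8 in wandering larvae, against 305, 282 and 289 in mid-L3 larvae (-2.23, SE 0.20, adjusted p = 3.71e-07). Eip74EF and Eip75B are not analysed here, since no probe set carried either symbol alone. Eip93F, Hr3, Hr38, Hr4 and ImpL1 lay below the filter on dim genes.

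**Figure D2:**
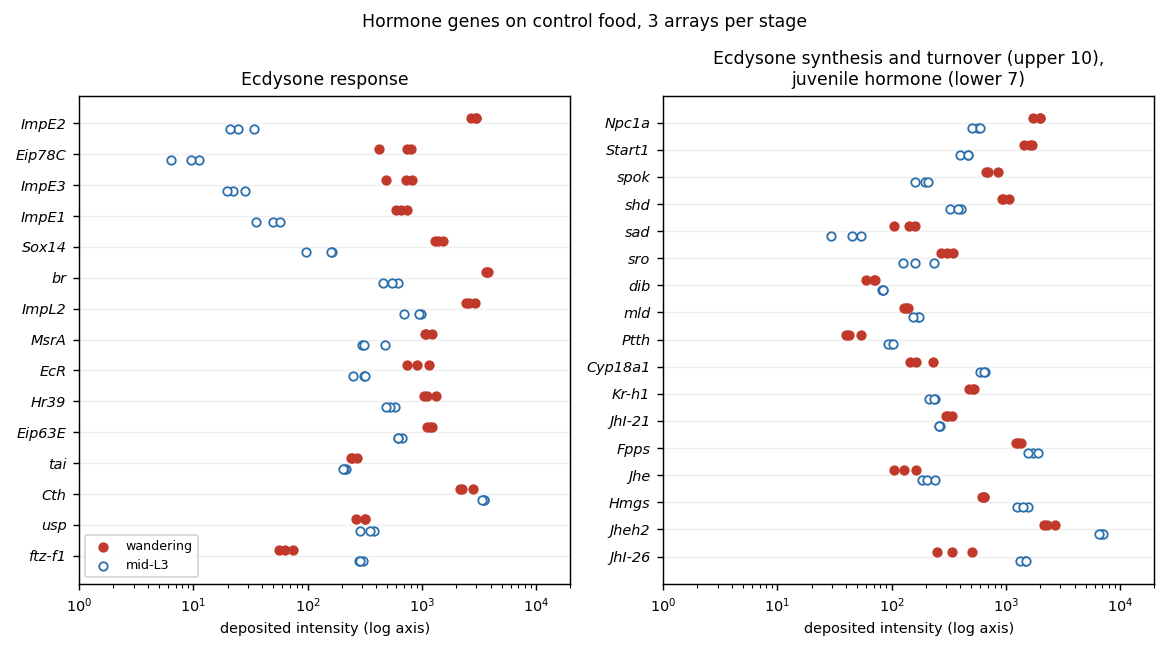
Deposited intensities on a log axis for the 15 tested ecdysone response genes (left panel) and for 10 genes of ecdysone synthesis and turnover above 7 of juvenile hormone (right panel), ordered by change. Filled red points are the 3 wandering arrays and open blue points the 3 mid-L3 arrays. The separation is widest for ImpE2 at the top of the left panel, and Cyp18a1 and JhI-26 close their groups as the largest decreases.

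Among 10 genes of ecdysone synthesis and turnover, 5 rose and 2 fell at least 2-fold. The spookier gene spok, a cytochrome P450 of the prothoracic gland, had 859, 677 and 704 in wandering larvae, against 198, 159 and 209.6 in mid-L3 larvae (1.70, SE 0.12, adjusted p = 4.43e-08). Shade (shd), the enzyme that makes active ecdysone outside that gland, had 948, 1060.4 and 929 in wandering larvae, against 409, 327 and 381 in mid-L3 larvae (1.20, SE 0.13, adjusted p = 1.72e-06). The sterol transport genes Npc1a and Start1 rose by 1.73 and 1.72, and the hydroxylase gene shadow (sad) by 1.18. Cyp18a1, which inactivates ecdysone, had 145, 163 and 231 in wandering larvae, against 663, 593 and 651 in mid-L3 larvae (-1.98, SE 0.16, adjusted p = 1.52e-07). Prothoracicotropic hormone (Ptth), the brain peptide that stimulates the gland, had 42.8, 39.6 and 53.6 in wandering larvae, against 99.5, 93.3 and 103 in mid-L3 larvae (-1.16, SE 0.12, adjusted p = 1.61e-06). Of the 10 genes 6 rose and 4 fell. Beside Cyp18a1 and Ptth, those that fell were the zinc finger gene molting defective (mld), by 0.57, and the hydroxylase gene disembodied (dib), which fell by 0.55 but did not pass with the values as deposited (adjusted p = 0.103, in a range of 0.000847 to 0.103 over the alternatives). Ptth was dim at both stages.

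Of 7 juvenile hormone genes, 3 fell at least 2-fold and none rose as much. The juvenile hormone inducible gene JhI-26 fell by 2.08, the epoxide hydrolase gene Jheh2 by 1.23 and the HMG-CoA synthase gene Hmgs, of the mevalonate pathway, by 1.17. Juvenile hormone esterase (Jhe) fell by 0.92. Kr-h1, a transcription factor that juvenile hormone induces in other settings, had 531, 474 and 519.9 in wandering larvae, against 242, 215 and 237 in mid-L3 larvae (0.86, SE 0.13, adjusted p = 5.08e-05).

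Feeding larvae digest starch, sugars and protein in the midgut, and most carbohydrase genes were lower in wandering larvae. Of 14 tested, 11 fell at least 2-fold and 1 rose, with a median of -2.34. The maltase gene Mal-A3 had 295, 102 and 45.5 in wandering larvae, against 4887, 4106 and 4213 in mid-L3 larvae (-5.06, SE 0.40, adjusted p = 1.02e-07). Mal-A5, another maltase gene of the same cluster, had 4116, 4595 and 3965 in wandering larvae, against 1973, 1184 and 1719.9 in mid-L3 larvae (1.64, SE 0.21, adjusted p = 1.08e-05), and was the member that rose. The alpha-mannosidase gene LManVI fell by 4.58 and the related LManIII fell by 4.06, and the alpha-glucosidase gene tobi by 2.96. LManII, of the same family as these mannosidase genes, was counted with the lysosome genes and rose.

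Trypsins did not move together. Of 9 tested, 6 fell at least 2-fold, led by lambdaTry with 23.9, 26.4 and 9.18 in wandering larvae, against 1852, 1929 and 1873 in mid-L3 larvae (-5.80, SE 0.20, adjusted p = 8.09e-11). alphaTry had 6085, 6527 and 5251 in wandering larvae, against 1603, 1308 and 1465 in mid-L3 larvae (2.23, SE 0.078, adjusted p = 7.38e-11), and rose. betaTry, a close copy of alphaTry whose probes may be shared with it, fell by 0.47. The Jonah peptidases, another group of gut serine peptidases, changed far less than the carbohydrases. Of 13 tested, 1 fell at least 2-fold and none rose, with a median of -0.23. That member was Jon44E, with 2042, 1275 and 1354 in wandering larvae, against 5726, 4932 and 5176 in mid-L3 larvae (-1.58, SE 0.20, adjusted p = 9.55e-06).

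Of 9 digestive lipases and sterol carriers, 3 rose and 1 fell at least 2-fold. The predicted lipase gene CG6271 had 3829.6, 4312 and 3232 in wandering larvae, against 463, 117 and 225 in mid-L3 larvae (4.0, SE 0.36, adjusted p = 3.37e-07). The acid lipase gene Lip3 had 2761, 3013 and 2003 in wandering larvae, against 496, 188 and 202 in mid-L3 larvae (3.16, SE 0.31, adjusted p = 8.30e-07). Npc2d, a sterol-binding protein gene, fell by 3.44. Of 3 lysozyme genes, LysX passed, with 1767, 1649 and 2390.3 in wandering larvae, against 23.9, 19.9 and 30.6 in mid-L3 larvae (5.75, SE 0.20, adjusted p = 6.78e-11), while LysS gave -0.21 (adjusted p = 0.174). LysS passed with the values as deposited (-0.52, adjusted p = 0.00364), with arrays centred on their medians (-0.82) and with array weights (-0.30), in a range of adjusted p of 9.10e-05 to 0.448 over the alternatives.

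**Figure D3:**
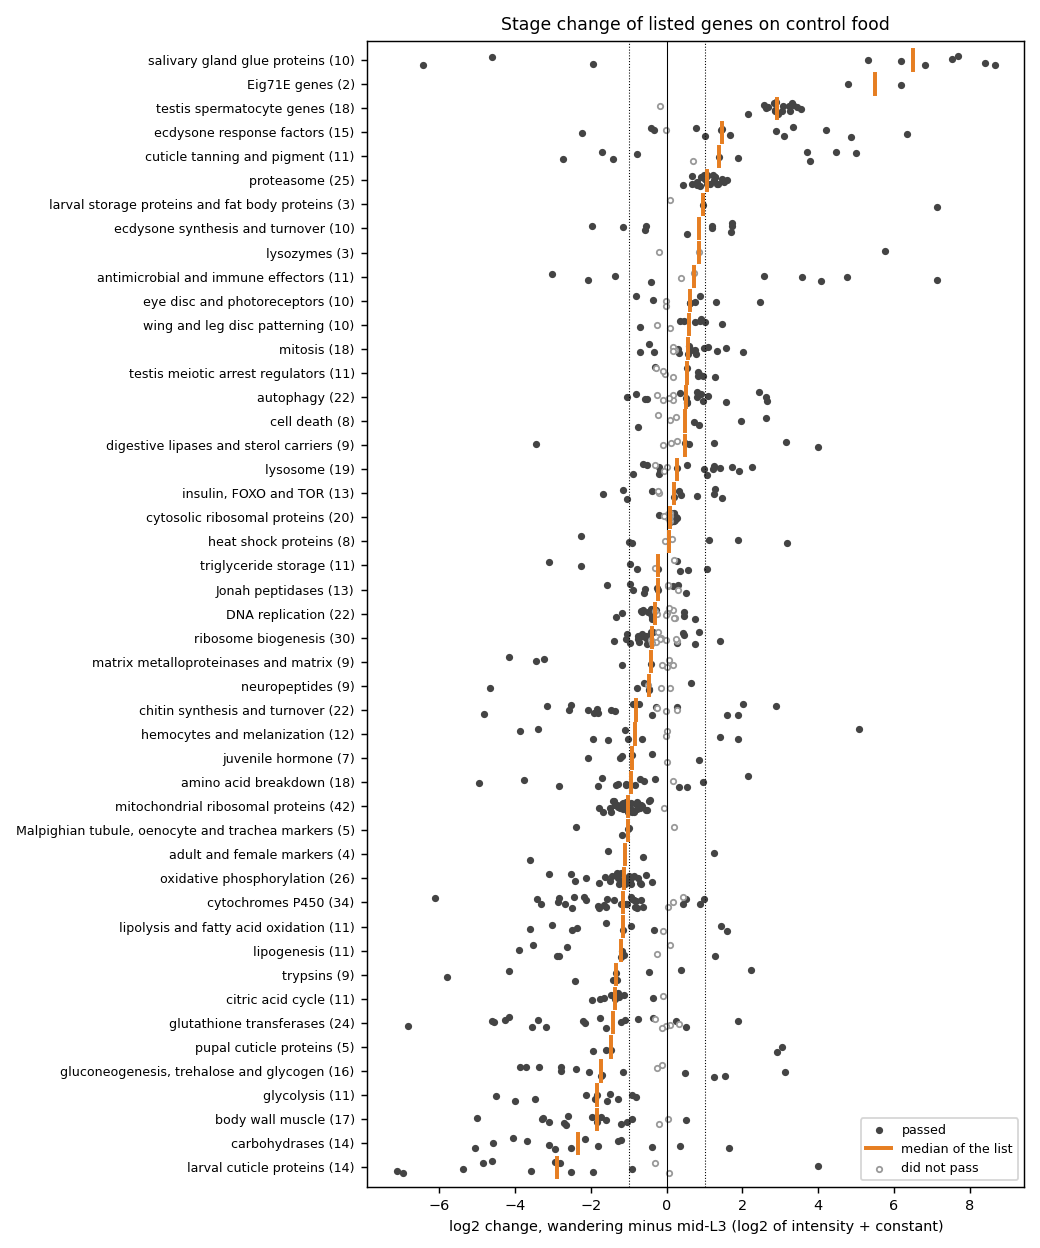
Log2 change (wandering minus mid-L3, log2 of intensity plus constant) of every tested member of the 47 gene lists, with the number tested in brackets, ordered by the median, which is the orange bar. Filled points passed at an adjusted p of 0.05 and open points did not, and dotted lines mark 2-fold. Glue proteins lie at the top with the 3 ng genes far to the left of the Sgs genes, and larval cuticle proteins at the bottom with Cpr12A far to the right.

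Transcripts of central energy metabolism were lower in wandering larvae. All 11 tested glycolysis genes fell, 9 of them at least 2-fold, with a median of -1.83. Hex-C, a hexokinase, had 13.1, 14.2 and 10.1 in wandering larvae, against 485, 641 and 538 in mid-L3 larvae (-4.50, SE 0.20, adjusted p = 4.57e-10). Phosphofructokinase (Pfk), which commits sugar to glycolysis, had 311, 224 and 247 in wandering larvae, against 3099, 2879 and 3017 in mid-L3 larvae (-3.49, SE 0.11, adjusted p = 4.94e-11). Glycerol-3-phosphate dehydrogenase (Gpdh1) had 451, 457 and 331 in wandering larvae, against 7013, 7749 and 6841 in mid-L3 larvae (-4.02, SE 0.25, adjusted p = 1.01e-08). The falls of the list ranged from -0.80 to -4.50. No wandering value of Hex-C, Pfk or Gpdh1 reached a mid-L3 value, while the stages lay apart in 83.0% of all tested genes.

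Of 11 citric acid cycle genes, 10 fell, 9 at least 2-fold, with the succinate dehydrogenase subunit gene SdhB lowest at -1.97. All 26 tested genes of oxidative phosphorylation fell, 16 at least 2-fold, with a median of -1.14. ND-75, a subunit of respiratory complex I, had 215, 187 and 197 in wandering larvae, against 1788, 1807 and 1633 in mid-L3 larvae (-3.11, SE 0.15, adjusted p = 8.67e-10). RFeSP, a subunit of complex III, fell by 2.53 and Cyt-c1, another, fell by 2.42. Both shares of at least 2-fold decreases, 81.8% in the citric acid cycle and 61.5% in oxidative phosphorylation, stood above the background of 19.1%. With the values as deposited the medians were -1.56 and -1.38.

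Most fat synthesis genes also fell. Of 11 lipogenesis genes, 8 fell and 1 rose at least 2-fold. Acetyl-CoA carboxylase (ACC) had 169, 169 and 143 in wandering larvae, against 2261, 2991 and 2136 in mid-L3 larvae (-3.89, SE 0.13, adjusted p = 4.20e-11). Fatty acid synthase (FASN1) had 1513, 1142 and 721 in wandering larvae, against 12236, 12925 and 12369 in mid-L3 larvae (-3.53, SE 0.28, adjusted p = 1.00e-07). FASN3, a paralog, had 1702, 1673 and 1599.6 in wandering larvae, against 766, 541 and 699.7 in mid-L3 larvae (1.27, SE 0.15, adjusted p = 6.06e-06), and was the member that rose. The malic enzyme gene Men fell by 2.84 and the sugar-responsive zinc finger gene sugarbabe (sug) by 2.62. In triglyceride storage 4 of 11 genes rose and 5 fell, and the 2 that fell at least 2-fold (18.2%) were a share near the background of 19.1%. Seipin fell by 3.10 and Dgat2 by 2.26, and the acyltransferase gene Agpat2 rose by 1.07.

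Lipid breakdown was split. Of 11 genes, 6 fell and 2 rose at least 2-fold. Brummer (bmm), the triglyceride lipase of the fat body, had 1569, 2018 and 1455 in wandering larvae, against 676, 513 and 589 in mid-L3 larvae (1.43, SE 0.17, adjusted p = 5.90e-06). Withered (whd), the carnitine palmitoyltransferase that admits fatty acids to mitochondria, had 3152, 3427 and 2680.2 in wandering larvae, against 1189, 1028 and 1184 in mid-L3 larvae (1.60, SE 0.10, adjusted p = 1.45e-08), and a dimmer probe set of it gave 0.25. The peroxisomal acyl-CoA oxidase genes Acox57D-d and Acox57D-p fell by 3.61 and 3.03, the carnitine carrier gene congested-like trachea (colt) by 2.50 and the enoyl-CoA hydratase gene Echs1 fell by 2.38. Thus the lipase and the entry step rose while the tested carrier and oxidation genes mostly fell.

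In the list for gluconeogenesis, trehalose and glycogen, 10 of 16 genes fell and 3 rose at least 2-fold. The glycogen branching enzyme gene AGBE had 186, 201 and 199 in wandering larvae, against 2886, 3077 and 2935 in mid-L3 larvae (-3.86, SE 0.11, adjusted p = 1.18e-11). Glycogen phosphorylase (Glyp) fell by 3.37, glycogen synthase (Glys) fell by 2.40 and trehalose-6-phosphate synthase (Tps1) by 2.80. The sugar transporter gene sut4 had 529, 751 and 640.2 in wandering larvae, against 49.5, 63.3 and 44.3 in mid-L3 larvae (3.12, SE 0.16, adjusted p = 1.92e-09), and glucose-6-phosphatase (G6P) rose by 1.54. The phosphoenolpyruvate carboxykinase genes went apart, Pepck1 falling by 1.16 and Pepck2 rising by 1.24.

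Of 18 genes of amino acid breakdown, 9 fell and 1 rose at least 2-fold. Hpd, an enzyme of tyrosine breakdown, fell by 4.94 and Faa, another, fell by 3.77. Hpd had 52.2, 50.03 and 40.1 in wandering larvae, against 1961, 1689 and 1889 in mid-L3 larvae (SE 0.17, adjusted p = 6.68e-11). Glycine N-methyltransferase (Gnmt) fell by 2.84. Glutamine synthetase 1 (Gs1) had 5626, 6055 and 5811 in wandering larvae, against 1463, 1615 and 1527 in mid-L3 larvae (2.14, SE 0.086, adjusted p = 2.20e-10), and was the member that rose.

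Of 13 genes for insulin, FOXO and TOR signalling, 3 rose and 3 fell at least 2-fold, close to the background shares. The insulin receptor gene InR had 374, 408 and 388 in wandering larvae, against 122, 140.1 and 121 in mid-L3 larvae (1.25, SE 0.099, adjusted p = 9.68e-08). Akt, a kinase that relays the insulin signal, rose by 1.28 and scylla (scyl), an inhibitor of TOR signalling, by 1.47. The receptor of adipokinetic hormone, AkhR, fell by 1.68 by its brighter probe set, while a dimmer one gave 0.23 and their mean -0.73. Tsc1 and gigas (gig), which together restrain TOR, fell by 1.05 and 1.15. The transcription factor gene foxo gave -0.22 (adjusted p = 0.166) and passed with arrays centred on their medians (-0.31, adjusted p = 0.0402, in a range of 0.0402 to 0.953 over the alternatives).

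Ribosomal protein genes of mitochondria fell and those of the cytosol changed little. Of 58 cytosolic members listed, 20 were tested, and 37 had no probe set with their symbol alone. None of the 20 changed by 2-fold, and their median was 0.097, at intensities near the top of the scale. At any size, 11 of the 20 passed as higher and 1 as lower, against 39.4% and 39.8% of all genes. The largest change of the list was that of RpS21, 0.27 (adjusted p = 5.52e-05), which turned to -0.24 with arrays centred on their medians. Of 42 mitochondrial ribosomal proteins, 41 fell, 22 at least 2-fold, with a median of -1.02. mRpL2 fell most, with 241, 272 and 235 in wandering larvae, against 744, 923 and 754 in mid-L3 larvae (-1.79, SE 0.13, adjusted p = 2.94e-08), and mRpS30 fell by 1.69. Of 30 ribosome biogenesis genes, 1 rose and 3 fell at least 2-fold, with Fibrillarin (Fib) at -1.07.

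**Figure D4:**
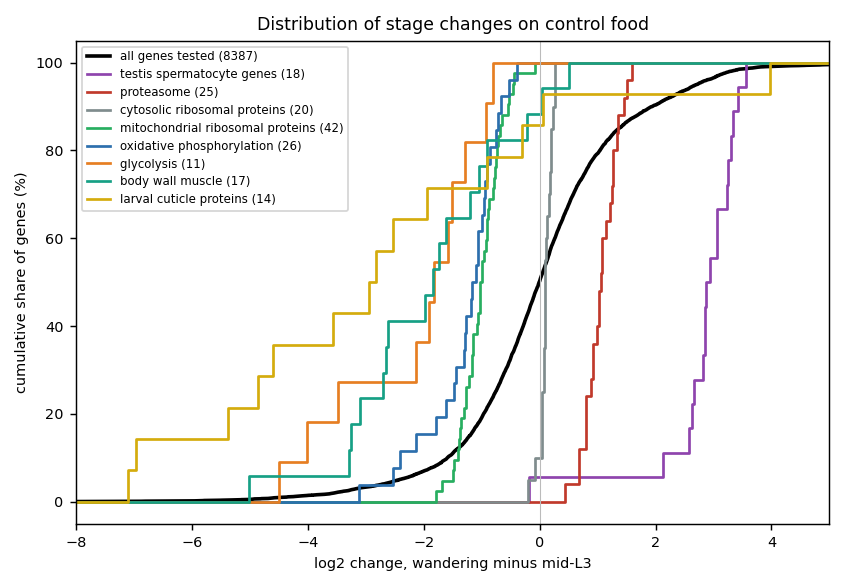
Cumulative share of genes (vertical axis, %) by log2 change, wandering minus mid-L3 (horizontal axis), for all 8387 tested genes (black) and 8 gene lists, with the number of genes in brackets. The testis and proteasome curves lie to the right of all genes, that of cytosolic ribosomal proteins rises steeply near 0, and those of mitochondrial ribosomal proteins, oxidative phosphorylation, glycolysis, muscle and larval cuticle lie to the left.

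All 25 tested proteasome genes rose, 15 of them at least 2-fold (against 20.6% of all genes, and 100% against 39.4% for any rise that passed), within a narrow range of 0.44 to 1.59. Rpt5, an ATPase of the regulatory particle, had 3448, 4042 and 3441 in wandering larvae, against 1303, 1509 and 1353 in mid-L3 larvae (1.59, SE 0.087, adjusted p = 3.01e-09). Rpn6, a lid subunit, rose by 1.5. With arrays centred on their medians the list's median was 0.54.

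Of 22 autophagy genes 13 rose, 5 of them at least 2-fold (22.7%), a share near the background of 20.6%. Atg7, the enzyme that activates the ubiquitin-like proteins of autophagy, had 1134, 1260.0 and 1371 in wandering larvae, against 192, 149 and 169 in mid-L3 larvae (2.64, SE 0.15, adjusted p = 3.49e-09). Atg8b, an Atg8 paralog known from the testis, rose by 2.61, Atg8a, the general form, by 1.09, Atg18b by 2.44 and the cargo receptor gene ref(2)P by 1.56. Vps15, a subunit of the lipid kinase complex, fell by 1.05. Of 8 cell death genes, 2 rose at least 2-fold (25.0%, against 20.6% of all genes), 1 fell by less and 3 did not pass. The initiator caspase gene Dronc had 1242, 1414 and 1198 in wandering larvae, against 213, 144 and 177 in mid-L3 larvae (2.62, SE 0.13, adjusted p = 9.33e-10), and its activator gene Dark had 763, 813 and 673 in wandering larvae, against 156, 157 and 155 in mid-L3 larvae (1.96, SE 0.092, adjusted p = 8.08e-10). Dronc and Dark form the apoptosome, and a dimmer probe set of Dark gave 0.090.

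Of 19 lysosome genes, 7 rose at least 2-fold and none fell as much. The cathepsin genes CtsF, cathD and CtsB rose by 1.91, 1.72 and 1.41, cathD with 8569, 8259.5 and 8005 in wandering larvae, against 3364, 2431 and 2844 in mid-L3 larvae (SE 0.088, adjusted p = 1.69e-09). The lysosomal alpha-mannosidase gene LManII rose by 2.25. Its relatives LManVI and LManIII, which fell at least 2-fold, were counted with the carbohydrases and not in this list. Vha100-2, a subunit of the proton pump, fell by 0.89.

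Muscle genes of the body wall fell in 14 of 17 cases, 13 at least 2-fold, with a median of -1.85. Paramyosin (Prm), a core protein of thick filaments, had 1936, 867 and 925 in wandering larvae, against 8381, 8101 and 8395 in mid-L3 larvae (-2.71, SE 0.24, adjusted p = 2.36e-07). Troponin T (up) fell by 3.11, the titin-like gene sallimus (sls) by 3.25 and Myosin light chain 2 (Mlc2) by 3.30. Obscurin (Obsc) gave -5.01 by its brightest probe set and -0.41 by a dimmer one. Another 2 did not pass, and the member that rose was Zasp66, a protein of the Z-disc. Zasp66 had 8393, 9007 and 8638 in wandering larvae, against 7653, 7164 and 7430.1 in mid-L3 larvae (0.50, SE 0.048, adjusted p = 6.57e-07). It gave -0.071 with arrays centred on their medians, and dimmer probe sets of it gave 0.79 and 1.03.

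Basement membrane genes fell as well: of 9 matrix genes, 4 fell at least 2-fold and none rose. The type IV collagen genes viking (vkg) and Col4a1 fell by 3.46 and 3.25, vkg with 576, 642 and 438 in wandering larvae, against 6465, 6691 and 6936 in mid-L3 larvae (SE 0.12, adjusted p = 5.67e-11). Nidogen (Ndg) fell by 4.16 and SPARC, a collagen-binding protein, by 1.18. The laminin subunit genes of the list did not pass.

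The testes of larvae of this instar hold growing spermatocytes, and genes that these cells express rose. Of 18 spermatocyte genes, 17 rose at least 2-fold (94.4%, against 20.6% of all genes), with a median of 2.91, and none fell. Mst84Da, a sperm tail protein, had 3398, 4354 and 3729 in wandering larvae, against 327, 398 and 255 in mid-L3 larvae (3.56, SE 0.14, adjusted p = 2.26e-10). betaTub85D, the tubulin of the male germ line, had 2427, 2854 and 2625 in wandering larvae, against 344, 399 and 294 in mid-L3 larvae (2.86, SE 0.15, adjusted p = 1.71e-09). The phosphatase gene twine (twe), which drives entry into meiosis, had 330.5, 340.0 and 405 in wandering larvae, against 56.8, 60.5 and 53.9 in mid-L3 larvae (2.14, SE 0.18, adjusted p = 2.26e-07). The summed intensity of the 18 genes was 29799.6, 36262 and 31163 in wandering larvae, against 3539, 4048 and 3162 in mid-L3 larvae. Protamine A (ProtA) rose by 3.31. Neighbouring Mst84D and Mst98C genes resemble each other and may share probes.

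Meiotic arrest genes, which regulate transcription in spermatocytes, moved less. Of 11 meiotic arrest regulators, 1 rose at least 2-fold (9.09%, against 20.6% of all genes), vismay (vis) by 1.27. At any size, 6 of the 11 passed as higher and 1 as lower, against 39.4% and 39.8% of all genes. cannonball (can) rose by 0.87. Of 17 adult and female markers, 4 were tested, the yolk protein genes Yp1, Yp2 and Yp3 being below the filter. Of those, Sxl rose by 1.24, with 0.32 in a dimmer probe set, and the eggshell genes Cp15 and Cp18 fell by 3.60 and 1.54, Cp15 at low values of 15.8, 10.8 and 19.8 in wandering larvae, against 234, 328 and 384 in mid-L3 larvae.

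Discs and other imaginal cells keep dividing in late larvae while most larval cells do not. Of 18 mitosis genes, 4 rose at least 2-fold (22.2%, near the background of 20.6%) and none fell as much: securin (pim) by 2.01, the kinetochore motor gene cmet by 1.57, Det by 1.33 and borr, of the chromosomal passenger complex, by 1.08. At any size, 12 of the 18 passed as higher and 3 as lower, against 39.4% and 39.8% of all genes. Of 22 DNA replication genes, 2 fell at least 2-fold, Cdc45 by 1.34 and Orc1 by 1.19, and none rose as much. At any size, 11 of the 22 passed as lower and 3 as higher. The median of the mitosis list was 0.57 and that of the replication list -0.30. In the eye disc list 2 of 10 rose at least 2-fold, the epidermal growth factor ligand gene spitz (spi) with 1997, 2078 and 2146 in wandering larvae, against 343, 301 and 399 in mid-L3 larvae (2.48, SE 0.11, adjusted p = 4.54e-10), and the Pax6 gene twin of eyeless (toy) by 1.29, with 0.21 and 0.70 in dimmer probe sets. The proneural gene ato fell by 0.82. In the wing and leg disc list 2 of 10 rose as much, Doc1 by 1.02 and Distal-less (Dll) by 1.45, though another probe set of Dll gave -2.40 and the mean of its probe sets 0.0050, and dpp fell by 0.71. Both disc shares were close to the background of 20.6%.

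Of 9 neuropeptide genes, 1 changed at least 2-fold, the neuropeptide-like precursor gene Nplp2. It had 956, 356 and 482 in wandering larvae, against 13863, 13599 and 13402 in mid-L3 larvae (-4.67, SE 0.41, adjusted p = 2.88e-07), a fall of a transcript that was among the brightest in feeding larvae. Ecdysis triggering hormone (ETH) gave -0.47 (adjusted p = 0.00521), with 71.8, 68.7 and 66.0 in wandering larvae, against 77.3, 69.7 and 95.8 in mid-L3 larvae, and the stages overlapped. With the values as deposited ETH gave -0.19 and did not pass (adjusted p = 0.218, in a range of 0.000793 to 0.218 over the alternatives).

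Blood cell genes moved both ways. Of the phagocytosis receptor genes, NimC2, eater and croquemort (crq) rose. NimC2 had 1954, 1890.0 and 1889 in wandering larvae, against 50.9, 30.9 and 48.2 in mid-L3 larvae (5.09, SE 0.23, adjusted p = 4.71e-10), eater rose by 1.87 and crq by 1.40. The prophenoloxidase genes of crystal cells fell: PPO2 had 209.9, 106 and 155 in wandering larvae, against 2385, 2292 and 2140.0 in mid-L3 larvae (-3.86, SE 0.22, adjusted p = 3.52e-09), and PPO1 fell by 3.39. Of 12 hemocyte and melanization genes, 3 rose and 6 fell at least 2-fold. Hemolectin (Hml), a marker of plasmatocytes, fell by 0.65.

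Single arrays mattered in the immune effector genes. Their summed intensity over 11 tested genes was 24506, 22173 and 19252 in wandering larvae, against 20103, 1870.0 and 3088 in mid-L3 larvae. The sum of mid-L3 array 1 thus lay with those of the wandering arrays, but was in part made up by different genes. In that array Mtk and DptB stood far above all wandering values, and Drsl5 and PGRP-SB2 far below them. Drosomycin (Drs), an antifungal peptide, had 8487, 4872 and 4912 in wandering larvae, against 6538, 129 and 165 in mid-L3 larvae (3.56, SE 0.97, adjusted p = 0.00454), with overlapping stages. Without both arrays numbered 1 its change was 4.99 (adjusted p = 5.31e-08, in a range of 1.58e-08 to 0.0256 over the alternatives). BomS2, a short peptide induced by infection, had 2668, 36.3 and 24.1 in wandering larvae, against 2931, 11.4 and 6.24 in mid-L3 larvae (0.71, adjusted p = 0.722), and was high in the arrays numbered 1 of both stages. With the replicate number as a block in the 6 control food arrays its change was 0.70 (adjusted p = 0.0235, in a range of 0.0235 to 0.952 over the alternatives). Diptericin B (DptB) had 65.1, 40.9 and 27.8 in wandering larvae, against 2277, 71.5 and 371 in mid-L3 larvae, a change of -3.04 (adjusted p = 0.00625) that was -2.09 without both arrays numbered 1 (adjusted p = 0.0269, range 0.000231 to 0.0269). Metchnikowin (Mtk) had 259.7, 305 and 205 in wandering larvae, against 4242, 279 and 842 in mid-L3 larvae, a change of -2.07 (adjusted p = 0.0292) that was -1.15 without both arrays (adjusted p = 0.2, range 0.00415 to 0.2). Mtk also did not pass when any single wandering array or mid-L3 array 1 was left out. Drsl2 had 167, 1801 and 1463 in wandering larvae, against 32.2, 12.7 and 8.96 in mid-L3 larvae (4.75, SE 0.71, adjusted p = 3.88e-05), with wandering array 1 closest to mid-L3. PGRP-SB2 and PGRP-SC2, of the family that binds or cleaves bacterial peptidoglycan, rose by 4.08 and 2.56, PGRP-SB2 with 852, 1849 and 1809 in wandering larvae, against 65.8, 65.5 and 60.6 in mid-L3 larvae.

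Detoxification genes fell. Of 34 cytochrome P450 genes, 19 fell at least 2-fold (55.9%, against 19.1% of all genes) and none rose as much. Cyp6a2 had 118, 41.5 and 21.4 in wandering larvae, against 4614, 4498 and 5220.2 in mid-L3 larvae (-6.12, SE 0.34, adjusted p = 3.48e-09). Of 24 glutathione transferases, 14 fell (58.3%) and 1 rose at least 2-fold. GstD7 had 9.74, 13 and 11.2 in wandering larvae, against 2973, 3214 and 2983 in mid-L3 larvae (SE 0.17, adjusted p = 7.57e-12), GstE6 fell by 4.60 and GstD2 by 4.55. GstO1 rose by 1.89. Of 5 markers of Malpighian tubule, oenocytes and trachea, 4 fell at least 2-fold, among them the oenocyte gene Cyp4g1 by 1.02.

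The heat shock list held 2 tested small heat shock genes, Hsp27 and Hsp26, which ecdysone is known to induce in cultured cells, and both rose. Hsp22, Hsp23 and the Hsp67B genes are not analysed here. Hsp27 had 7996, 8899 and 9125 in wandering larvae, against 1015, 976 and 1067 in mid-L3 larvae (3.18, SE 0.088, adjusted p = 1.27e-11), and Hsp26 rose by 1.89. The mitochondrial chaperone gene Hsp60A fell by 2.26. Of 8 heat shock genes, 3 rose and 1 fell at least 2-fold, and Hsc70-4 gave -0.049 (adjusted p = 0.390). Hsc70-4 passed with the values as deposited (-0.21, adjusted p = 0.0152) and with arrays centred on their medians (-0.50), in a range of adjusted p of 2.94e-05 to 0.942 over the alternatives.

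Some genes that changed the same way were neighbours. Along the chromosome arms, in a gene table that placed 8368 of the tested genes and with untested genes passed over, 18 runs of at least 5 neighbours that all rose at least 2-fold held 100 genes, and 14 runs that all fell held 81 genes. The longest run of decreases, on arm 3L, held 9 genes, namely l(3)mbn and 8 cuticle genes with Lcp65A or Cpr65A symbols, with a median change of -4.22. A run of 6 GstD genes on arm 3R had a median of -3.90, 5 GstE genes on 2R -3.20 and 5 trypsin genes on 2R, lambdaTry among them, -2.43. Among the increases, a run of 9 genes on arm 3R, Pif2 to CG31286, had a median of 2.78, and a run of 7 that included 4 Mst84D genes had 3.23. Since 20.6% of all genes rose and 19.1% fell at least 2-fold, some such runs can occur by chance, and the number to expect was not worked out. Gene families copied in tandem can share probes, and the runs carry no test.

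The change on control food was set against that on high sugar food, which was measured on 6 other arrays. Those wandering larvae had 1 M sucrose from hatching and those mid-L3 larvae for 12 h. Stage and time on high sugar therefore cannot be told apart in that change, nor in its difference from control food. On high sugar food 6638 genes passed, and 3154 changed at least 2-fold. Of the 3333 genes with at least 2-fold changes on control food, 2778 (83.3%) changed at least 2-fold in the same direction on high sugar food, and 27 had the opposite sign. Across genes the changes on both foods correlated with Pearson's r of 0.951, a description over genes, which are not independent. A test of the difference between the changes passed for 651 of 8387 genes (7.76%). It passed for 349 of the 3333. In 282 of these the difference ran against the change on control food, reversals of direction included, and in 67 along with it. The 3333 were chosen by control food values that this test also used, which favours the first kind, so the split carries no conclusion. Over all 651 genes, 318 differences were higher and 333 lower. Without wandering high sugar array 2 the test passed for 1277 genes.

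**Figure D5:**
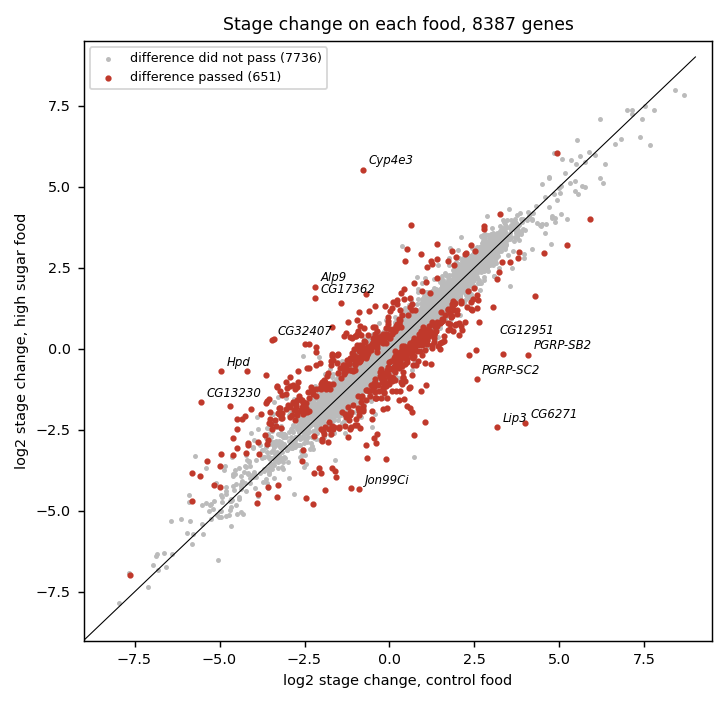
Log2 stage change, wandering minus mid-L3, on control food (horizontal axis) and on high sugar food (vertical axis) for 8387 genes. Red points are the 651 genes whose difference between foods passed, grey points the others, and the line marks equal changes. Cyp4e3 lies far above the line and Lip3 and CG6271 far below it.

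The largest differences between the foods included lipase, peptidoglycan recognition and cytochrome P450 genes. CG6271 changed by 4.0 on control food and by -2.29 on high sugar food, a difference of -6.29 (SE 0.51, adjusted p = 1.12e-05). Lip3 changed by 3.16 on control food and by -2.42 on high sugar food (SE 0.44, adjusted p = 1.07e-05). The rise of PGRP-SB2 and PGRP-SC2 on control food stood against -0.18 and -0.95 on high sugar food. Cyp4e3, a cytochrome P450 gene, changed by -0.78 on control food and by 5.52 on high sugar food (SE 0.32, adjusted p = 3.80e-07). Hpd changed by -4.94 on control food and by -0.70 on high sugar food (SE 0.24, adjusted p = 6.60e-07), and the alkaline phosphatase gene Alp9 by -2.19 and 1.91. For the glue gene Sgs4 the difference did not pass, with a change of 8.39 on control food and of 8.0 on high sugar food (adjusted p = 0.373). Likewise br changed by 2.87 on control food and by 2.88 on high sugar food (adjusted p = 0.992). Of the glue genes ng2 passed this test, with -4.60 on control food and -2.74 on high sugar food (SE 0.37, adjusted p = 0.00787).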

How the data were processed

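Whole larvae were measured on 12 Affymetrix arrays, 3 for each of 4 groups named by the labels, with biotin-labelled cRNA from 2 ug of total RNA. The authors deposited 1 linear intensity per probe set and array. How probes were summarized and normalized is not given in the sources used here. Of 18952 probe sets, 183 were controls, and 13647 had 1 gene symbol. Current symbols were found by Entrez identifier for 13544 of them. For each of 11982 genes the probe set with the highest mean was used, and 8387 genes at or above the 30th percentile of mean level were kept. After adding 12.676, the 20th percentile of intensities, values were put on the log2 scale and quantile normalized. In R 4.3.3, limma 3.58.1 estimated 4 group means from the 12 arrays (eBayes with trend, residual df 8), and the p-values received Benjamini-Hochberg adjustment across all genes tested. An exact permutation of 3 against 3 arrays cannot give a p below 0.1. Figures were drawn with matplotlib 3.10.9.

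The comparison, the 47 gene lists and the alternatives were chosen with earlier results of these data known. Lists were described by counts and medians, with no set test. The rule for naming took the 12 largest changes per direction, up to 4 members per list, 30 fixed genes and the 6 largest differences between foods per direction. The fixed genes Lsp1alpha, Lsp1beta, Lsp1gamma, Eip74EF, Eip75B, phm, Thor, Ilp6, Myc, Mmp1, ple, rpr and hid were not tested. Some genes that the rule took, from the lists and from the differences between foods, are not named in the text. Of the 219 genes named, 61 lie outside this rule and were chosen after their values were seen. They are ATPsynCF6L, Acbp1, Acbp4, BomS2, COX4, COX4L, COX7AL2, Cht5, CtsB, Drs, E(spl)malpha-BFM, ETH, Echs1, Edg91, G6P, Glys, Hml, Hsc70-4, ImpE1, ImpL2, Jhe, LysS, Men, Mtk, ND-20L, Pepck2, Prm, Ptth, Sgs5bis, Sox14, Tsc1, Tsp42Eg, Tsp42Ep, TwdlE, Ugt37A2, betaTry, betaTub85D, borr, crq, dib, e, eater, foxo, gig, kkv, lncRNA:CR33948, mld, mmy, ng2, ng3, ref(2)P, sad, serp, shd, speck, stw, sug, tobi, twe, up and usp.

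Replicate numbers paired the control food arrays by the data: deviations from the stage means correlated at 0.12 to 0.18 in same-numbered arrays and at -0.18 to 0.073 in others. What a number marks is not given by the labels, and on high sugar food same-numbered arrays gave -0.022 to 0.040. Alternatives were values as deposited, arrays centred on medians, another constant (1, or 5 times the main one), the filter dropped or set at the 50th percentile, probe sets averaged per gene or each taken singly, the 6 control food arrays alone, the replicate block, array weights, no trend, a robust prior, limma treat, and leaving out each array or both control arrays numbered 1. The steps were tested on simulated data.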

Additional observations from a re-analysis of the deposited data

Results flagged for a closer look

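The results here are genes named in the text whose change from mid-L3 to wandering differed between high sugar and control food in limma's test of that difference, at an adjusted p under 0.05. Differences are high sugar minus control, on the log2 scale. No cause of them was tested, and stage cannot be told apart from time on high sugar in them.

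Several increases on control food were smaller, absent or turned to decreases on high sugar food. There CG6271 changed by -2.29, Lip3 by -2.42 and PGRP-SC2 by -0.95. The difference was -6.29 for CG6271, -5.58 for Lip3, -4.26 for PGRP-SB2 and -3.51 for PGRP-SC2. Agpat2 rose by 1.07 on control food and changed by -1.11 on high sugar food, a difference of -2.18. Among metabolic and gut genes it was -1.56 for Gs1, -1.40 for alphaTry and -1.34 for whd. Among genes of autophagy, lysosomes and sterol transport it was -1.24 for Atg18b, -0.71 for CtsF, -0.57 for CtsB, -0.50 for cathD and -0.52 for Npc1a. Pu gave -1.0. With the replicate number as a block the difference for Npc1a did not pass (adjusted p = 0.0536).

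Some decreases were larger on high sugar food. The difference was -2.39 for Jon44E, -0.91 for speck, -0.87 for ACC and -0.62 for AGBE. Pepck2, which rose, changed more on high sugar food, by a difference of 1.36, which did not pass with the block (adjusted p = 0.0532).

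Other decreases were smaller on high sugar food. In sugar, lipid and amino acid metabolism the difference was 4.24 for Hpd, 1.78 for Faa, 2.01 for Hex-C, 1.62 for Acox57D-p, 1.18 for Men, 0.56 for colt and 0.48 for Cyt-c1. It was 1.64 for Ugt37A2, a UDP-glycosyltransferase, and 1.04 for Tsp42Eg, a tetraspanin. It was 1.86 for ng2, 1.18 for Ndg, 1.08 for lambdaTry and 0.67 for CG15515, of which lambdaTry and CG15515 did not pass with the block (adjusted p = 0.0699 and 0.0714). Pepck1 fell by 1.16 on control food and changed by 0.35 on high sugar food, a difference of 1.51. Alp9 gave a difference of 4.09 and Cyp4e3 of 6.30, both with a decrease on control food and an increase on high sugar food.

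Of these differences, those of CG15515, lambdaTry, Npc1a, cathD, colt, Pepck2, AGBE and CtsF did not pass in 4 to 9 of the 12 fits that left out 1 array, at adjusted p = 0.0508 to 0.1. Without both control food arrays numbered 1, ACC also did not pass (adjusted p = 0.0557).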

How the results depend on the processing

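The count of genes that passed was 4776 (of 5991 tested) to 9833 (all 13138 probe sets), and the count with at least 2-fold changes 2277 to 4903, each within 1.5 times of 6642 and 3333. A test against a change of 2-fold (limma treat) called 2389 genes. With one array left out these counts were 6385 to 6824 and 3274 to 3416. The difference between foods, with 651 calls, gave 2206 with array weights and 428 to 1277 with one array left out, the lowest counts being 428 without mid-L3 high sugar array 3 and 429 without mid-L3 control array 3, and the highest 1277 without wandering high sugar array 2. With the replicate number as a block, 6561 genes passed over the 12 arrays and 6688 in the 6 control food arrays alone, 3334 and 3327 changed at least 2-fold, and the difference between foods passed for 556. Apart from BomS2, the block changed no call of a stage change named above. Of the differences between foods it ended those of CG15515, Npc1a, Pepck2 and lambdaTry. Counts of the gene lists in either direction stayed within 1.5 times of those reported in 2344 of 2444 comparisons.

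Apart from fits that left out 1 array, 10 calls of a stage change in a named gene were lost and 7 were gained under the alternatives, and 3 signs turned. With arrays centred on their medians, Lsp2 gave -0.29, RpS21 -0.24 and Zasp66 -0.071. BomS2 gave -1.29 to 3.06 with one array left out, and values below 0 without wandering array 1 (-1.29), mid-L3 array 2 (-0.37) or mid-L3 array 3 (-0.54). The added constant makes changes of dim genes smaller: in Cyp4e3 the decrease on control food did not pass with a constant 5 times larger (adjusted p = 0.0589). Precision is limited by 3 arrays per stage.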

Other observations

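Families picked out by symbol, after their values had been seen and so without support from a test, held further patterns against shares of all tested genes of 20.6% higher and 19.1% lower at 2-fold. Counts are of genes that passed with changes of at least 2-fold unless stated otherwise. All 7 tested genes of the Enhancer of split complex, targets of Notch signalling, rose at least 2-fold, E(spl)malpha-BFM most, with 477, 592 and 599 in wandering larvae, against 44.1, 47.1 and 35 in mid-L3 larvae (3.21, SE 0.14, adjusted p = 4.88e-10). Of 26 numbered tetraspanins, membrane proteins that organise other proteins, 10 rose and 2 fell. Tsp42Ep rose by 4.84 and Tsp42Eg fell by 3.18. Of 22 UDP-glycosyltransferases, which conjugate sugars to small molecules, 12 fell and 1 rose, with Ugt37A2 at -5.57. Of 6 acyl-CoA binding proteins, 5 fell, Acbp4 with 196, 146 and 17.6 in wandering larvae, against 6552, 6789.9 and 6325 in mid-L3 larvae (-5.91, SE 0.72, adjusted p = 6.14e-06), and Acbp1 rose by 0.72, less than 2-fold. Of 9 alkaline phosphatases, 8 fell and Alp1 rose. Of 18 long non-coding RNAs with a symbol, 10 rose and 3 fell, with lncRNA:CR33948 at 5.51. Tweedle cuticle proteins held 6 decreases and 1 increase of 8, TwdlE rising by 3.19.

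Subunits of the respiratory chain and ATP synthase moved opposite to most of their paralogs, whose symbols carry an L for like. Counts here are of passing genes, whatever the size of the change. All 8 cytochrome oxidase subunits named without the letter fell, between -1.19 and -0.40, whereas 5 of 6 named with it rose at least 2-fold and 1, COX7AL2, fell by 1.62. COX4L had 1443, 1801 and 1444 in wandering larvae, against 153, 114 and 119 in mid-L3 larvae (3.34, SE 0.13, adjusted p = 2.20e-10). COX4, its counterpart, had 5081, 4837 and 4402 in wandering larvae, against 9776, 9646 and 9894 in mid-L3 larvae (-0.75, SE 0.043, adjusted p = 4.73e-09). All 10 ATP synthase subunits named without the letter fell. Of the 4 named with it 3 rose, ATPsynCF6L by 3.00, and 1 fell, by 0.46, which did not pass with values as deposited. All 25 complex I subunits named without it fell and both paralogs rose, ND-20L by 2.07. All of these subunits named without the letter also fell with values as deposited and with arrays centred on their medians. The spermatocyte genes, 17 of 18 of which rose with a median of 2.91, moved with these paralogs, and their part in the result was not tested.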
